A study of Homo sapiens with 9 samples.

Results

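The oxaliplatin-resistant subline HCT-Oxa-c and the 5-fluorouracil-resistant subline HCT-FU-c were compared directly, over every mature miRNA with enough small RNA reads. Both sublines descend from HCT116, a widely used line of human colorectal cancer cells, and were selected by growing it without interruption in increasing concentrations of oxaliplatin or of 5-fluorouracil (5-FU). The comparison set the 3 biological replicates of HCT-Oxa-c against the 3 of HCT-FU-c, 6 of the 9 libraries of the series. The 3 libraries of drug-sensitive parental HCT116 gave the common reference level. They were also part of the fit, in the filter, the scaling and the estimate of the spread. For each drug, 1 subline was sequenced in this series. A difference due to the drug and one due to the individual subline therefore cannot be told apart, and replicate error here is that among cultures of the same line. The sources used here do not state whether the drugs were present when the RNA was taken. Reads had been counted on 1198 listed miRNAs, of which 367 were tested.

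miRNAs are short RNAs cut as 2 arms, 5p and 3p, from a hairpin precursor, and they repress mRNAs that pair mainly with bases 2 to 8 of the mature strand, the seed. miRNAs with the same seed share most of their predicted targets even where they come from different genes, and hairpins that lie close together are often cut from 1 primary transcript. Oxaliplatin acts by forming platinum adducts on DNA, and 5-FU acts as an inhibitor of thymidylate synthase that is also built into RNA and DNA.

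The mature sequences of the miRNAs on which the comparison turned are shown 5′ to 3′, with the seed in capitals. They come from RefSeq (GRCh38.p14), where 328 of the 367 tested miRNAs were found. The first 4 are shown because paralogs with 1 differing base in their shared stretch were called in opposite directions, those of miR-23a and miR-27a with the replicate block only:
miR-23a-3p: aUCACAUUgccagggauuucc
miR-23b-3p: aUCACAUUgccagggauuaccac
miR-27a-3p: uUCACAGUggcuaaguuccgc
miR-27b-3p: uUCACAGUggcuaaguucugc
The other arms of the miR-23b and miR-27b hairpins carry unrelated seeds:
miR-23b-5p: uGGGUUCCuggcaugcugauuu
miR-27b-5p: aGAGCUUAgcugauuggugaac
Another seed is shared by miR-30a-5p, the miRNA with the largest log2 difference of all tested, and by 2 relatives with small differences:
miR-30a-5p: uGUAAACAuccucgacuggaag
miR-30e-5p: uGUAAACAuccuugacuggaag
miR-30c-5p: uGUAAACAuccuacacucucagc
A p53-linked seed is carried by miR-34a-5p and miR-449a, and the seed of miR-449c-5p is the same stretch shifted by 1 base:
miR-34a-5p: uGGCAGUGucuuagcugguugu
miR-449a: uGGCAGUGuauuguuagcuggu
miR-449c-5p: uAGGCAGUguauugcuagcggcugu
The remaining sequences belong to miRNAs that differed between the sublines without an opposing relative, and to the most abundant miR-181 pair:
miR-301a-5p: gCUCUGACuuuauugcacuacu
miR-218-5p: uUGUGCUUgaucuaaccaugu
miR-224-5p: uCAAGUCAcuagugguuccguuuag
miR-203a-3p: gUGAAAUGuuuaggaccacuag
miR-205-5p: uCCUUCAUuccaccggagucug
miR-148a-3p: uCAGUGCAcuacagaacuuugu
miR-889-3p: uUAAUAUCggacaaccauugu
miR-543: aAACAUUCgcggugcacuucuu
miR-487b-3p: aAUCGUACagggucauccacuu
miR-181a-5p: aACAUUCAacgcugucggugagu
miR-181b-5p: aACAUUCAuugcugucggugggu

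The libraries held 1088268 to 2207538 counts in HCT-Oxa-c and 919675 to 1487737 in HCT-FU-c, and a count of 3 or less, which was treated as not distinguishable from 0, corresponded to between 1.34 and 3.57 CPM (counts relative to the TMM-scaled library size). This limit and the intervals given for counts cover counting error only, since amplified reads are not independent molecules. The replicate 3 libraries of all lines stood apart from the others. The deviations from the line means correlated at 0.45, 0.56 and 0.76 between HCT-Oxa-c and HCT-FU-c libraries of the same number. They correlated at 0.47 and 0.61 between replicates 1 and 2 of unlike number, so numbers 1 and 2 are not shown to pair. Between a replicate 3 library of one subline and a library of another number of the other subline they correlated at -0.54 to -0.68. The 3 deviations of a line sum to 0, so these negative values follow in part from the centring. The same holds for the positive values among numbers 1 and 2. Because replicate 3 stood apart, each result is given from a model with the line as its only factor and, where the call or count changed, also from a model with the replicate number as a block. The epithelial markers of the colorectal label were present in both sublines, at like levels in sum. The summed level of the 13 listed miRNAs of the intestinal epithelium list, which holds the miR-200 family that restrains the mesenchymal factors ZEB1 and ZEB2, was 20585 to 25305 CPM in HCT-FU-c and 21522 to 25851 CPM in HCT-Oxa-c. The miR-200 family alone held 20472 to 25062 CPM and 21414 to 25667 CPM, so the sum does not show the levels of the other members. Log2 differences of the 10 tested members ranged from -0.77 to 0.61.

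Between the sublines, 16 of the 367 tested miRNAs differed at an adjusted p below 0.05 in the quasi-likelihood F test of edgeR (Benjamini-Hochberg adjustment), which is 4.36% of those tested. Of these, 13 (3.54%) were higher in HCT-Oxa-c and 3 (0.817%) were lower. Among the 13, 4 (miR-543, miR-487b-3p, miR-23b-5p and miR-205-5p) would not have passed the filter on low counts without HCT-Oxa-c. That selection favoured the higher side, as none of the 16 passed only through HCT-FU-c. The miRNAs higher in HCT-Oxa-c came from miR-23b and miR-27b, the imprinted miR-379 cluster of chromosome 14, the epithelial miRNAs miR-203a-3p and miR-205-5p, and other hairpins such as those of miR-218-5p, miR-224-5p, miR-148a-3p and miR-449c-5p. The miRNAs lower in HCT-Oxa-c were both arms of miR-30a and the 5p arm of miR-301a. With the replicate number as a block, 97 miRNAs (26.4%) passed the same threshold, 54 higher (14.7%) and 43 lower (11.7%), and all 16 were among them. Of these 97, 13 would not have passed the filter without HCT-Oxa-c and 6 would not have without HCT-FU-c. In 84 miRNAs (22.9%) the 3 HCT-Oxa-c libraries did not overlap with the 3 HCT-FU-c libraries, in 45 (12.3%) because they lay above and in 39 (10.6%) because they lay below. All 16 belong to these 84, which by itself fixes the same direction in each of the 3 pairs of same-numbered libraries. With total counts in place of TMM the calls were 11 higher and 6 lower, and the median log2 difference over all tested miRNAs was -0.26 in place of -0.07. The count rested on single libraries. It was 6 without HCT-FU-c replicate 1 and likewise without HCT-FU-c replicate 2, 9, 7 and 8 without HCT-Oxa-c replicates 1, 2 and 3, 10 without HCT116 replicate 1, and 23 without HCT-FU-c replicate 3. With replicates 1 and 2 only, 67 were called, 41 higher and 26 lower, including all 16.

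**Figure D1:**
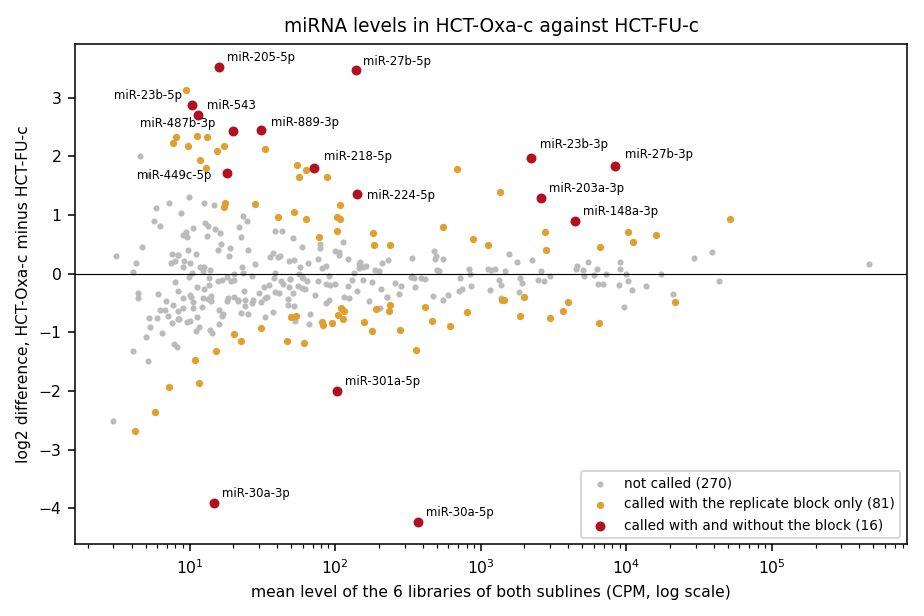
The log2 difference between the sublines (HCT-Oxa-c minus HCT-FU-c, vertical axis) is plotted against the mean level of their 6 libraries (CPM, log scale) for each of the 367 tested miRNAs. The 16 miRNAs called with and without the replicate block are named, and the 81 called with the block only are marked on either side of 0.

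Among the 16 calls, 4 came from miR-23b/27b/24-1, a cluster that has been studied in cell migration and epithelial to mesenchymal transition. Of its 6 tested members 4 were called in either model, beside 4.36% of all tested miRNAs without the block and 26.4% with it. The third hairpin did not follow. Its own arm miR-24-1-5p, named after its values were seen, had 18, 10 and 1 counts in HCT-FU-c. In HCT-Oxa-c it had 16, 29 and 4, and it was not called in either model. All 4 mature arms of miR-23b and miR-27b were higher in HCT-Oxa-c. MIR23B (chr9:95085208-95085304) and MIR27B (chr9:95085445-95085541) lie on the plus strand in an intron of C9orf3 (GENCODE 29 on GRCh38). miR-27b-3p measured 3421, 3706 and 3859 CPM in replicates 1, 2 and 3 of HCT-FU-c, and 10206, 10750 and 18418 CPM in HCT-Oxa-c. The lowest HCT-Oxa-c library stood well above the highest of HCT-FU-c, and the difference was 3.58-fold (log2 1.84, standard error 0.26, edgeR adjusted p = 0.00443). For miR-23b-3p the levels were 885, 766 and 1029 CPM in HCT-FU-c and 2662, 2878 and 5019 CPM in HCT-Oxa-c. The groups again did not overlap, with a 3.94-fold difference (log2 1.98, standard error 0.29, edgeR adjusted p = 0.00454). In HCT116 miR-27b-3p was at 3035 ± 163 CPM and miR-23b-3p at 659 ± 56.9 (SD, n = 3 each), close to the levels of HCT-FU-c. Both calls were kept in every alternative model run.

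The less abundant arms of the same hairpins had larger fitted log2 differences, but within libraries this was not shown for miR-23b. Its log2 ratio of 5p to 3p counts differed by 0.86 between the sublines (limma adjusted p = 0.987, with the block 0.476). This ratio rose in replicates 1 and 2 but fell in replicate 3, from -7.59 in HCT-FU-c to -8.30 in HCT-Oxa-c. The ratio of miR-27b was called with the block only. miR-27b-5p measured 12.8, 13.7 and 44.1 CPM in HCT-FU-c and 150.4, 163 and 446 CPM in HCT-Oxa-c, a log2 difference of 3.46 (standard error 0.76, edgeR adjusted p = 0.0369). Replicate 3 was the highest library of each subline, and every HCT-Oxa-c library exceeded every HCT-FU-c library. miR-23b-5p had counts of only 2, 3 and 4 in HCT-FU-c, at or just above the counting limit, against 38, 42 and 15 in HCT-Oxa-c (edgeR adjusted p = 0.0329). Pooled over libraries, this was an 8.38-fold ratio with an exact 95% counting interval from 4.24 to 18.9. miR-23b-5p passed the filter on low counts only through its HCT-Oxa-c libraries. The call of miR-23b-5p was lost without any 1 library of the sublines except HCT-FU-c replicate 3 (edgeR adjusted p up to 0.155). The call of miR-27b-5p was lost without the same libraries and without HCT116 replicate 1 (edgeR adjusted p up to 0.160). The log2 difference of miR-27b-5p was 2.84 without HCT-Oxa-c replicate 3 and 4.31 without HCT-FU-c replicate 3, and that of miR-23b-5p was 3.59 without HCT-FU-c replicate 3.

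The paralogous cluster miR-23a/27a/24-2 lies on chromosome 19, with MIR23A at chr19:13836587-13836659 and MIR27A at chr19:13836440-13836517 on the minus strand, in an exon of the noncoding gene AC020916.1. The 3p strands of miR-23a and miR-27a were called lower in HCT-Oxa-c, though with the block only. miR-23a-3p measured 8411, 6758 and 9825 CPM in HCT-FU-c against 4435, 4535 and 4913 CPM in HCT-Oxa-c, without overlap, and its log2 difference was -0.85 (standard error 0.21). The edgeR adjusted p was 0.0613 without the block and 0.000350 with it. miR-27a-3p went from 3745 ± 453 CPM in HCT-FU-c to 2214 ± 154 in HCT-Oxa-c (SD, n = 3 each), and its edgeR adjusted p was 0.0955 without and 0.000976 with the block. miR-24-2-5p, the other arm of the third hairpin, had a log2 difference of -1.19 (edgeR adjusted p = 0.322, with the block 0.000339). miR-27a-5p did not pass in either model, at 78.9 ± 17.3 and 84.0 ± 8.82 CPM (SD, n = 3 each). miR-24-3p, which is cut from a hairpin of each cluster and cannot be assigned to one, did not pass either, with a log2 difference of -0.57 and an edgeR adjusted p of 0.743 (0.0948 with the block).

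Since the paralogs carry the same seed, their counts were also summed by seed and tested as 1 quantity. For the miR-23 seed UCACAUU the sum was 9757, 7908 and 11746 CPM in HCT-FU-c and 7343, 8209 and 9779 CPM in HCT-Oxa-c. These values overlapped, and no difference was detected (log2 -0.22, 95% interval -0.73 to 0.30, edgeR adjusted p = 0.744, with the block 0.303). Within that sum the share of miR-23b-3p was 9.52%, 10.2% and 9.48% in HCT-FU-c, against 37.5%, 38.8% and 50.5% in HCT-Oxa-c. For the miR-27 seed UCACAGU the sum was 7514, 8315 and 7743 CPM in HCT-FU-c and 12917, 14162 and 20419 CPM in HCT-Oxa-c. This was a 2.01-fold difference with a 95% interval of 1.41 to 2.88 (log2 1.01, edgeR adjusted p = 0.0387), and the share of miR-27b-3p went from 46.9% to 53.9% in HCT-FU-c to 81.7% to 88.8% in HCT-Oxa-c. In the mature strands the paralogs differ at 1 shared position, counted from 1 at the 5′ end, as U19A between miR-23a-3p and miR-23b-3p and as C19U between miR-27a-3p and miR-27b-3p. The number of mismatches that the read mapping allowed is not given in the sources used here, so reads could have been split between such paralogs, and their separate levels are uncertain to that extent. Over all seeds, 10 of 270 tested (3.7%) passed without the block, 9 of them higher in HCT-Oxa-c, and 74 (27.4%) passed with it. The miR-27 seed was the only one of the 10 that summed more than 1 tested miRNA. The call on the miR-27 seed was lost when any 1 library other than HCT116 replicate 3 was left out (edgeR adjusted p from 0.0615 to 0.226), with total counts (0.105), without the filter (0.0664) and in the fit of the 6 subline libraries alone (0.0747), while its log2 difference stayed between 0.80 and 1.14. The number of seeds called was 0 without HCT-FU-c replicate 1 by edgeR (31 had an unadjusted p below 0.05), 2 without HCT-FU-c replicate 2 or HCT-Oxa-c replicate 2, 3 without HCT-Oxa-c replicate 1 or 3, and 5 without HCT116 replicate 1.

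**Figure D2:**
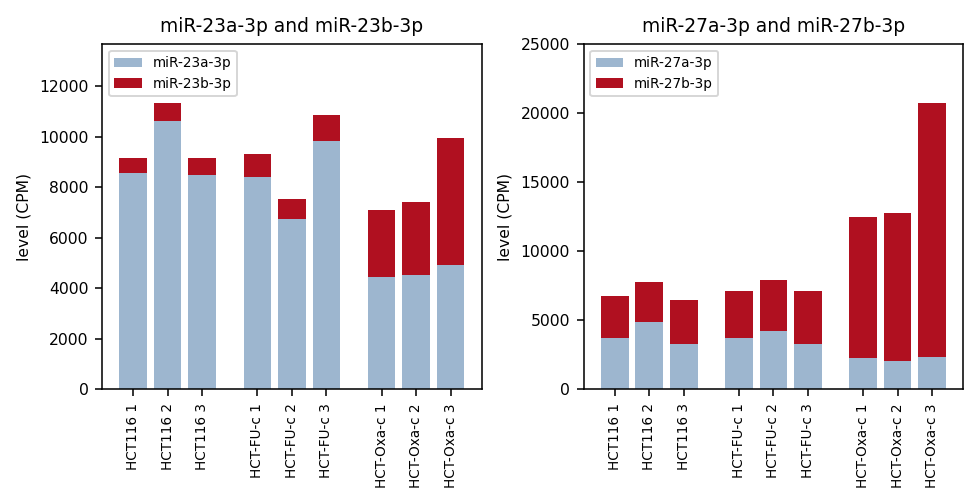
Stacked bars give the level (CPM) of the 3p strands of miR-23a and miR-23b (left) and of miR-27a and miR-27b (right) in each of the 9 libraries. In HCT-Oxa-c the a strands are lower and the b strands higher, so that the miR-23 total overlaps with HCT-FU-c while the miR-27 total lies above it in all 3 libraries.

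miR-30a showed the largest decrease. MIR30A lies at chr6:71403551-71403621 on the minus strand, in introns of the noncoding genes AL136164.2 and LINC00472, with no other hairpin within 10 kb. Farther off, MIR30C2 (chr6:71376960-71377031) lies in introns of the same genes. miR-30c-5p is cut from it and from MIR30C1 on chromosome 1, and its reads cannot be assigned to one of them. miR-30a-5p, known to restrain the mesenchymal factor SNAI1 and the autophagy gene BECN1, measured 1189, 662 and 267 CPM in HCT-FU-c and 40.4, 21.5 and 52.3 CPM in HCT-Oxa-c. The HCT-FU-c libraries were spread widely, yet the lowest was above every HCT-Oxa-c library. The level was 18.7-fold higher in HCT-FU-c (log2 difference -4.23, standard error 0.57, edgeR adjusted p = 0.00443), and HCT116 was at 1467 ± 160 CPM (SD, n = 3). miR-30a-3p had 33, 48 and 28 counts in HCT-FU-c, against 3, 4 and 2 in HCT-Oxa-c, where it was at or near the counting limit (edgeR adjusted p = 0.00443). Pooled, the ratio was 15.2 with an exact 95% counting interval from 7.74 to 34.2. The calls on both arms held in every alternative model that tested them, but the size for miR-30a-5p moved with single libraries, with a log2 difference of -3.58 when HCT-FU-c replicate 1 was left out and of -4.53 when replicate 3 of that subline was.

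The other members of the miR-30 family had smaller differences. Of 8 tested members, only the 2 miR-30a arms were called without the block, beside 4.36% of all tested miRNAs. With the block 3 were lower and 2 higher in HCT-Oxa-c, beside 11.7% and 14.7%. miR-30e-5p, which differs from miR-30a-5p at a single position (C13U, counted from the 5′ end), was at 6766 ± 2154 CPM in HCT-FU-c and 6000 ± 1164 CPM in HCT-Oxa-c (SD, n = 3 each, edgeR adjusted p = 0.838). miR-30c-5p was at 2264 ± 459 CPM in HCT-FU-c and 1709 ± 139 CPM in HCT-Oxa-c (SD, n = 3 each), with an edgeR adjusted p of 0.485 (0.0490 with the block). miR-30d-5p, the most abundant of the family, was at 11223, 8419 and 17736 CPM in HCT-FU-c and 15572, 15946 and 27559 CPM in HCT-Oxa-c. Its groups overlapped, and it was called higher only with the block (log2 0.67, edgeR adjusted p = 0.00173, without the block 0.485). Summed over all 11 listed arms, the family measured 22302, 21976 and 26132 CPM in HCT-FU-c and 24840, 25661 and 36284 CPM in HCT-Oxa-c, with overlap. miR-30a-5p made up 1.02% to 5.33% of this sum in HCT-FU-c and 0.0836% to 0.162% in HCT-Oxa-c.

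miR-301a-5p was the third miRNA lower in HCT-Oxa-c. MIR301A lies at chr17:59151136-59151221 on the minus strand, in an intron of SKA2, a gene of chromosome segregation. The level was 212, 143 and 139 CPM in HCT-FU-c and 41.4, 44.7 and 36.9 CPM in HCT-Oxa-c. The HCT-FU-c libraries were all above 100 CPM and those of HCT-Oxa-c all below 50 (log2 difference -2.001, standard error 0.28, edgeR adjusted p = 0.00443). The call was kept in every alternative model. HCT116 was at 56.5 ± 12.6 CPM (SD, n = 3), near HCT-Oxa-c. Against HCT116 the log2 difference of miR-301a-5p was 1.55 in HCT-FU-c and -0.46 in HCT-Oxa-c, values that share the HCT116 libraries. The other arm, miR-301a-3p, named here after its values were seen, measured 36.3, 18.9 and 125.05 CPM in HCT-FU-c and 33.0, 31.7 and 108 CPM in HCT-Oxa-c. No difference was detected for it (edgeR adjusted p = 0.985).

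The 2 arms of a hairpin were therefore compared within each library, a comparison added after the data were seen. The log2 of the 5p over the 3p counts needs no scaling between libraries, and it was fitted with limma for the 68 hairpins with both arms tested and both arms from the same loci. Without the block no hairpin was called (0%, and 3 had an unadjusted p below 0.05), and with the block limma called 3 (4.41%), those of miR-181c, miR-27b and miR-301a. In miR-301a there were 5.78, 7.49 and 1.11 reads of the 5p arm per read of the 3p arm in HCT-FU-c, against 1.25, 1.41 and 0.346 in HCT-Oxa-c. Each HCT-Oxa-c library was below the HCT-FU-c library of the same number, although the groups overlapped, and the log2 ratio differed by -2.10 (limma adjusted p = 0.653, with the block 0.00982). In miR-27b the 5p arm was a small share of the reads in all libraries, and its log2 ratio to the 3p arm was -8.02, -8.06 and -6.43 in HCT-FU-c, against -6.08, -6.04 and -5.37 in HCT-Oxa-c, without overlap. The log2 ratio was higher by 1.67 in HCT-Oxa-c (limma adjusted p = 0.653, with the block 0.0224). In miR-181c the 3p arm had 12, 14 and 5 counts in HCT-FU-c, against 2, 4 and 0 in HCT-Oxa-c, while the 5p arm had 26, 30 and 23 and then 28, 29 and 19. This ratio was higher by 2.42 on the log2 scale (limma adjusted p = 0.515, with the block 0.00896), on counts near the limit. miR-181c-3p would not have passed the filter on low counts without the HCT-FU-c libraries, where it was high, so its inclusion favoured this direction.

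**Figure D3:**
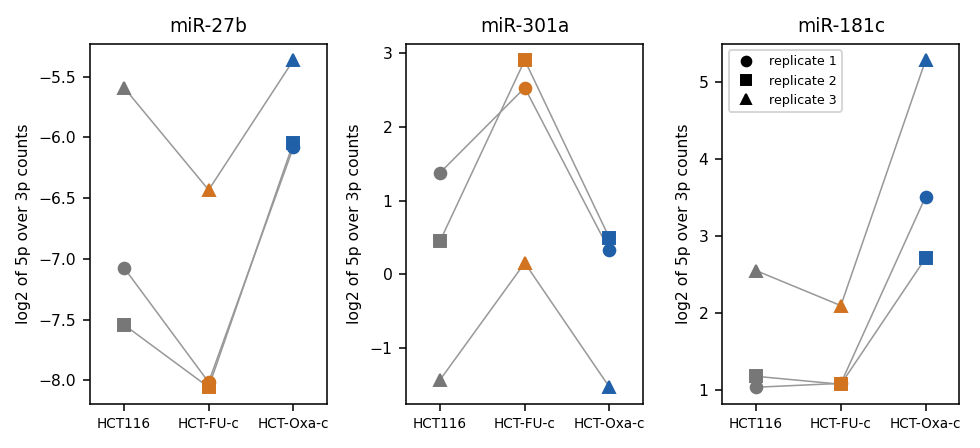
The log2 of 5p over 3p counts is shown for the hairpins of miR-27b, miR-301a and miR-181c in each library, with lines joining the libraries of the same replicate number. All 3 lines rise from HCT-FU-c to HCT-Oxa-c for miR-27b and miR-181c and fall for miR-301a, while the replicate 3 libraries are offset from the others.

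The miR-379 cluster, which starts with MIR379 (chr14:101022066-101022132), is one of the miRNA groups of the imprinted DLK1-DIO3 region, where miRNAs are expressed from the maternal chromosome and are best known from placenta, brain and stem cells. Its reads were few. Summed over all 54 listed arms, the cluster measured 137, 111 and 194.1 CPM in HCT-FU-c, 471, 554 and 835 CPM in HCT-Oxa-c and 109 to 234 CPM in HCT116. Every HCT-Oxa-c library was above every library of the other lines. Of the 17 tested members, 12 would not have passed the filter on low counts without HCT-Oxa-c, so that the tested members are a selection in favour of this direction. Of these 17, 3 were called higher without the block (3.54% of all tested miRNAs were) and 15 with it (14.7%), and none was called lower. In view of that selection nothing is read from these counts. The 37 members below the filter, which that selection left out, held 24.2, 24.2 and 16.7 CPM together in HCT-FU-c and 90.7, 99.7 and 97.5 CPM in HCT-Oxa-c.

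The members called without the block were miR-889-3p, miR-543 and miR-487b-3p. miR-889-3p (MIR889, chr14:101047901-101047979, in an intron of the noncoding gene MIR381HG) measured 9.07, 8.93 and 10.7 CPM in HCT-FU-c and 42.5, 51.9 and 62.6 CPM in HCT-Oxa-c. The replicates of HCT-FU-c lay close together, and the difference was 5.45-fold (log2 2.45, standard error 0.34, edgeR adjusted p = 0.00443), a call kept in every alternative model that tested it. miR-543 (MIR543, chr14:101031987-101032064, in an intron of MEG8) had 5, 5 and 2 counts in HCT-FU-c, against 35, 46 and 20 in HCT-Oxa-c (edgeR adjusted p = 0.0157), a pooled ratio of 6.69 with an exact 95% counting interval from 3.66 to 13.4. miR-487b-3p (MIR487B, chr14:101046455-101046538, in an intron of MIR381HG) had 4, 12 and 8 counts against 38, 74 and 47 (edgeR adjusted p = 0.0363). Both passed the filter only through HCT-Oxa-c. The call on miR-543 was lost without HCT-FU-c replicate 1, HCT-FU-c replicate 2 or HCT-Oxa-c replicate 2 (edgeR adjusted p up to 0.103). The call on miR-487b-3p was lost without these, HCT-Oxa-c replicate 3 or HCT116 replicate 1, and in the fit of the 6 subline libraries alone (edgeR adjusted p up to 0.155). Among the more abundant members, which passed the filter without HCT-Oxa-c as well, miR-379-5p had a mean of 24.1 ± 12.2 CPM in HCT-FU-c and of 85.9 ± 51.1 CPM in HCT-Oxa-c (SD, n = 3 each). Its edgeR adjusted p was 0.184 without the block and 5.25e-05 with it. For miR-369-3p it was 0.439 and 7.10e-05, for miR-409-3p 0.0613 and 0.000173.

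In the miR-181 family, known from lymphocyte development and studied in tumours, miR-181a-5p, miR-181b-5p and miR-181a-3p were called higher in HCT-Oxa-c with the block only. miR-181a-5p measured 599, 479 and 1175 CPM in HCT-FU-c and 1669, 1413 and 2845 CPM in HCT-Oxa-c. miR-181b-5p measured 223, 149 and 561 CPM in HCT-FU-c and 750.5, 714 and 1728 CPM in HCT-Oxa-c. Replicate 3 was the highest library of both sublines, and within each replicate number HCT-Oxa-c was the higher one, without overlap of the groups. The log2 differences with the block were 1.43 for miR-181a-5p and 1.87 for miR-181b-5p, with edgeR adjusted p-values of 1.66e-07 and 1.21e-08 (0.116 and 0.169 without it). With replicates 1 and 2 only, the differences were 1.59 and 2.05, with edgeR adjusted p-values of 6.13e-05 and 1.68e-05. miR-181a-3p had a log2 difference of 1.83 with the block (edgeR adjusted p = 5.25e-05, without it 0.142). Of the 8 tested members of the family 4 were higher (14.7% of all tested miRNAs were) and 1, miR-181c-3p, was lower with the block, and none was called without it. miR-181c-3p entered the test only through HCT-FU-c, and its call is no support for a lower level. For the seed ACAUUCA, the sum of miR-181a-5p, miR-181b-5p, miR-181c-5p and miR-181d-5p was 1180 ± 676 CPM in HCT-FU-c and 3165 ± 1209 CPM in HCT-Oxa-c, SD over 3 libraries each, a 2.68-fold ratio with a 95% interval of 1.29 to 5.59 (edgeR adjusted p = 0.135, with the block 9.35e-10).

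miR-224-5p and miR-452-5p are cut from hairpins inside GABRE, a gene for a subunit of a neurotransmitter receptor, on the X chromosome (MIR224, chrX:151958578-151958658, minus strand). miR-224-5p measured 81.6, 64.1 and 91.7 CPM in HCT-FU-c, 207, 160.0 and 243 CPM in HCT-Oxa-c and 173 ± 20.6 CPM (SD, n = 3) in HCT116. HCT-Oxa-c was 2.57-fold above HCT-FU-c (log2 1.36, standard error 0.26, edgeR adjusted p = 0.0201), and its libraries spanned the level of HCT116. Against HCT116 the log2 difference was -1.13 in HCT-FU-c and 0.23 in HCT-Oxa-c. The call was lost without HCT-FU-c replicate 1 or 2 and without HCT-Oxa-c replicate 1 or 3 (edgeR adjusted p up to 0.139). miR-452-5p was at 16.3 ± 6.64 and 27.7 ± 6.39 CPM (SD, n = 3 each) in HCT-FU-c and HCT-Oxa-c, and did not pass (edgeR adjusted p = 0.326, with the block 0.0939).

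miR-218-5p is encoded by MIR218-1 in an intron of SLIT2 (chr4:20528275-20528384) and MIR218-2 in an intron of SLIT3 (chr5:168768146-168768255), genes of axon guidance, and its reads cannot be assigned to one of them. It measured 24.2, 30.5 and 41.7 CPM in HCT-FU-c and 88.6, 147 and 97.5 CPM in HCT-Oxa-c, with 63.5 ± 5.52 CPM (SD, n = 3) in HCT116 between them. The sublines did not overlap and differed 3.48-fold (log2 1.798, standard error 0.31, edgeR adjusted p = 0.0114). This call was lost without HCT-FU-c replicate 1, HCT-FU-c replicate 2 or HCT-Oxa-c replicate 2 (edgeR adjusted p up to 0.0930).

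miR-203a-3p and miR-205-5p are miRNAs of stratified epithelia, where miR-203 restrains the progenitor factor p63 and miR-205 acts with the miR-200 family on ZEB1 and ZEB2. miR-203a-3p (MIR203A, chr14:104117405-104117514, plus strand) measured 1539, 1086 and 1919 CPM in HCT-FU-c and 3679, 3066 and 4336 CPM in HCT-Oxa-c. The libraries did not overlap, and the level was 2.44-fold higher in HCT-Oxa-c (log2 1.29, standard error 0.27, edgeR adjusted p = 0.0343). The call on miR-203a-3p was lost in the fit of the 6 subline libraries alone and without any 1 library other than HCT116 replicates 2 and 3 and HCT-FU-c replicate 3 (edgeR adjusted p up to 0.140). MIR203B lies inside MIR203A on the opposite strand, and whether strand was used in the counting is not given in the sources used here, so the level of miR-203b-3p is uncertain. It measured 11.3, 12.1 and 179 CPM in HCT-FU-c and 63.4, 61.7 and 323 CPM in HCT-Oxa-c. Replicate 3 was far above the other replicates in both sublines, and the edgeR adjusted p was 0.698 without the block and 0.000180 with it. miR-205-5p (MIR205, chr1:209432133-209432242, in an exon of MIR205HG) had 4, 7 and 0 counts in HCT-FU-c, 69, 48 and 31 in HCT-Oxa-c and 2, 0 and 0 in HCT116. It was near or below the counting limit outside HCT-Oxa-c, with a pooled ratio to HCT-FU-c of 10.7 and an exact 95% counting interval from 5.80 to 21.9 (edgeR adjusted p = 0.0369). miR-205-5p passed the filter only through HCT-Oxa-c, and its call was lost with total counts in place of TMM and without any 1 library other than HCT116 replicates 2 and 3 and HCT-FU-c replicate 3 (edgeR adjusted p up to 0.142).

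miR-148a-3p, known to restrain the DNA methyltransferase DNMT1, was abundant and showed the smallest difference among the calls. MIR148A lies at chr7:25949919-25949986 with no annotated host gene and no other hairpin within 10 kb. Its level was 3091, 2959 and 3273 CPM in HCT-FU-c and 5610, 6522 and 5177 CPM in HCT-Oxa-c. The groups did not overlap, and the difference was 1.86-fold (log2 0.89, standard error 0.20, edgeR adjusted p = 0.0380). This call did not pass without any 1 library except HCT116 replicate 3, where it did, nor with total counts, without the filter or in the fit of the 6 subline libraries alone (edgeR adjusted p up to 0.234).

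The miR-34 and miR-449 families act on the cell cycle and share a seed. miR-34a-5p, a direct target of p53, measured 225, 195.9 and 291 CPM in HCT-FU-c and 103, 118 and 139.5 CPM in HCT-Oxa-c. It was lower in every HCT-Oxa-c library, with a log2 difference of -0.98 (standard error 0.26). Its edgeR adjusted p was 0.0768, and 0.000332 with the block. miR-449c-5p and miR-449a lie together in an intron of CDC20B on chromosome 5 (MIR449C at chr5:55172262-55172353). miR-449c-5p measured 6.04, 8.40 and 10.7 CPM in HCT-FU-c and 21.0, 22.8 and 39.0 CPM in HCT-Oxa-c, without overlap, and was 3.27-fold higher in HCT-Oxa-c (log2 1.71, standard error 0.39, edgeR adjusted p = 0.0415). miR-449a, named after its values were seen, was at 10.5 ± 2.73 and 24.3 ± 2.98 CPM (SD, n = 3 each), with an edgeR adjusted p of 0.0796 (0.0315 with the block). Summed over the seed GGCAGUG that miR-34a-5p and miR-449a share, the level was 263 ± 56.1 CPM in HCT-FU-c and 151 ± 16.9 CPM in HCT-Oxa-c (SD, n = 3 each), with an edgeR adjusted p of 0.135 (0.00248 with the block). The call on miR-449c-5p was lost without any 1 library other than HCT116 replicate 2 and HCT-FU-c replicate 3, with total counts, with limma-voom, without the filter and in the fit of the 6 subline libraries alone (adjusted p up to 0.221, by edgeR without the filter).

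**Figure D4:**
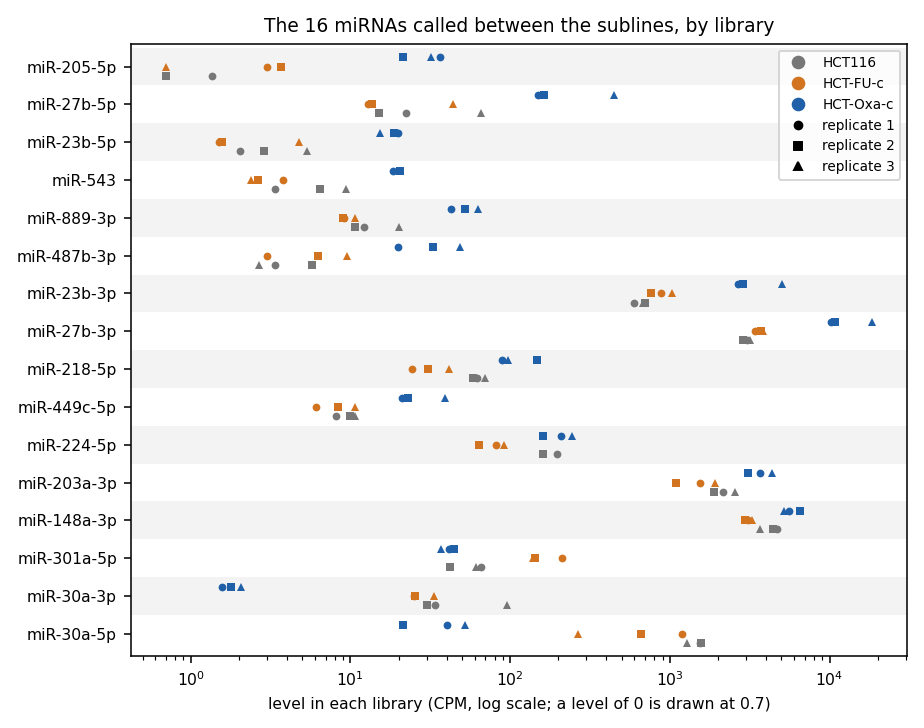
The level (CPM, log scale) of the 16 miRNAs called between the sublines is shown in each library, with colours for the lines and symbols for the replicate numbers. In no row do the libraries of one subline overlap with those of the other, and the mean of HCT116 lies between both subline means in 10 of the 16.

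Besides miR-23a-3p, miR-27a-3p, miR-24-2-5p and miR-34a-5p, the miRNAs called lower with the block at the smallest p-values were miR-3613-5p, miR-18a-5p, miR-335-3p and miR-186-5p. miR-335-3p, cut from an intron of the imprinted gene MEST, measured 998, 817 and 578 CPM in HCT-FU-c and 501, 433 and 356 CPM in HCT-Oxa-c. Its groups did not overlap (log2 with the block -0.88, edgeR adjusted p = 0.000308, without it 0.0955). miR-3613-5p measured 431, 903 and 206 CPM and then 306, 232 and 89.2 CPM, with overlap between the groups but a lower level of HCT-Oxa-c in each pair (edgeR adjusted p = 0.416, with the block 0.000175). miR-186-5p was at 2308 ± 1105 CPM in HCT-FU-c and 1408 ± 448.5 CPM in HCT-Oxa-c (SD, n = 3 each), with an edgeR adjusted p of 0.563 (0.00333 with the block).

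miR-18a-5p belongs to miR-17-92, the MYC-driven cluster of proliferating cells. Of its 10 tested members, with the block 5 were lower in HCT-Oxa-c and 1 was higher, beside 11.7% and 14.7% of all tested miRNAs, and none was called without it. The median log2 difference of the members was -0.50, beside -0.07 over all tested miRNAs. miR-18a-5p measured 286, 239 and 584 CPM in HCT-FU-c and 146, 124 and 303 CPM in HCT-Oxa-c (log2 with the block -0.95, edgeR adjusted p = 0.000180, without it 0.413). miR-17-5p was at 978 ± 101 and 624 ± 91.1 CPM, miR-19b-3p at 495 ± 52.7 and 335 ± 36.7, and miR-20a-5p at 1625 ± 298 and 1193 ± 234 (SD, n = 3 each). Their edgeR adjusted p-values were 0.282, 0.485 and 0.565 without the block and 0.00410, 0.0381 and 0.0331 with it.

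Other families were mostly called with the block only. Of all tested miRNAs, 14.7% were higher and 11.7% lower with the block, and the counts of each family stand beside these shares. With so few members in each, the counts are not read as a result about a family. In the miR-99, miR-100 and miR-125 families, 2 of 9 tested members were higher and 1 lower with the block, and none was called without it. miR-100-5p, one of the most abundant miRNAs, measured 38213, 21562 and 47265 CPM in HCT-FU-c and 59446, 59575 and 86242 CPM in HCT-Oxa-c (log2 with the block 0.98, edgeR adjusted p = 0.000185, without it 0.139). miR-125b-5p was lower with the block (log2 -0.46, edgeR adjusted p = 0.0304, without it 0.698). In the cluster of miR-183, miR-96 and miR-182, 2 of 5 were higher with the block, miR-182-5p and miR-183-5p, both with replicate 3 far above the other replicates in each subline (edgeR adjusted p = 0.0145 and 0.00105, without the block 0.826 and 0.677). Of miR-221 and miR-222, 1 of 4 tested members was lower, miR-222-3p (log2 with the block -0.48, edgeR adjusted p = 0.0233, without it 0.597). In the list of miR-34, miR-192, miR-194 and miR-215, 2 of 3 tested members were lower with the block, miR-34a-5p and miR-194-5p (edgeR adjusted p of miR-194-5p 0.0133, without the block 0.466). The third, miR-192-5p, named after its values were seen, went the other way (log2 0.61) and was not called. It had 64, 76 and 29 counts in HCT-FU-c, against 134, 134 and 56 in HCT-Oxa-c, and its levels in CPM did not overlap. In the let-7 family 2 of 18 were lower with the block, of which let-7f-2-3p passed the filter only through HCT-FU-c. With the block, 1 of 8 in the miR-200 family was higher, and so was 1 of 6 in miR-106b/25, 1 of 6 in the HOX-cluster miRNAs (miR-10b-5p) and 1 of 9 in the miR-15/16 family. In that last group miR-195-5p did not pass (log2 0.22, standard error 0.61, edgeR adjusted p = 0.915, with the block 0.832). None of 5 in the miR-29 family was called in either model by edgeR, and no member of the miR-106a cluster had enough reads for the test. The shares called with the block in miR-200, miR-106b/25, let-7, HOX-cluster, miR-15/16 and miR-29 lay below the 26.4% of all tested miRNAs.

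**Figure D5:**
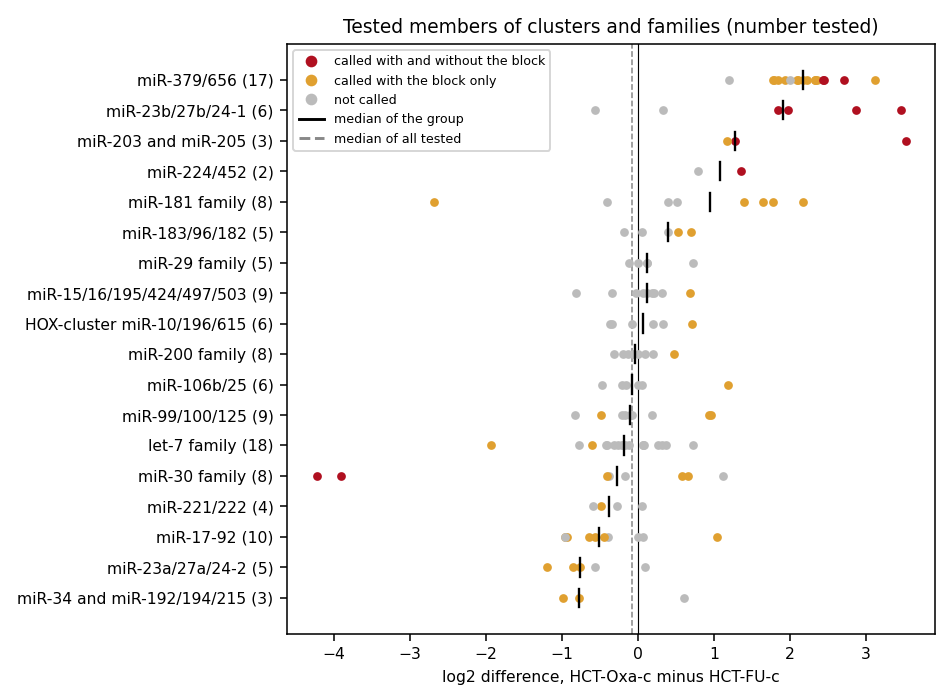
Each point is the log2 difference (HCT-Oxa-c minus HCT-FU-c) of a tested miRNA in the cluster or family named at the left, coloured by whether it was called, with a black bar at the group median and a dashed line at the median of all tested miRNAs, -0.07. The members of the chromosome 14 cluster all lie above 0, but 12 of its 17 would not have passed the filter without HCT-Oxa-c, which favoured this direction. The median of miR-23a/27a/24-2 lies opposite to that of miR-23b/27b/24-1, and both miR-30a arms stand far below their family.

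The introduction of the study names miRNAs linked by earlier work to the response to either drug, and these were followed in the direct comparison. Of 16 listed miRNAs linked to 5-FU, 14 were tested, and 4 were called without the block, all higher in HCT-Oxa-c, namely miR-27b-3p, miR-218-5p, miR-224-5p and miR-203a-3p. That is beside 4.36% of all tested miRNAs. With the block 7 were higher and 5 lower, beside 14.7% and 11.7%, and of these miR-494-3p passed the filter only through HCT-Oxa-c. The introduction was written by the authors who report these libraries, and miR-27b and miR-224 are among their own results. The list is therefore not independent of these data, and nothing is read from its counts. The let-7 family, which the introduction also names without members, is not in this list and was counted on its own, with no call without the block. Of 3 linked to oxaliplatin, miR-203a-3p was called higher, and miR-20a-5p was called lower with the block only.

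Reads of the blood markers were few, but replicate 3 stood out in them. The 10 listed miRNAs of the blood list summed to between 43.6 and 289 CPM in HCT-FU-c and between 12.1 and 588 CPM in HCT-Oxa-c, with the highest value in replicate 3 of each. miR-451a, an erythroid miRNA, had 0, 0 and 70 counts in HCT-FU-c, 1, 2 and 246 in HCT-Oxa-c and 2, 0 and 86 in HCT116. It was called higher in HCT-Oxa-c with the block (edgeR adjusted p = 0.00903, without it 0.826), a call that rests on the replicate 3 libraries, as the other 6 held 0 to 2 counts. miR-451a would not have passed the filter without the replicate 3 library of either subline, HCT-Oxa-c included, and its call is no support for a higher level. The leukocyte miRNA miR-142-3p had 5, 7 and 1 counts in HCT-FU-c and none in the 3 HCT-Oxa-c libraries, where a count of 0 allows up to 3 per library. Of the intestinal epithelium list 1 of 10 tested miRNAs was higher and 1 lower with the block, and none was called without it. The list of muscle, liver, neuron and endothelium miRNAs, which holds miR-9 and miR-126 that HCT116 itself carried, summed to 4625 to 5673 CPM in HCT-FU-c and 4516 to 5560 CPM in HCT-Oxa-c, and its liver miRNA miR-122-5p had 0, 0 and 20 counts against 7, 3 and 45. Of its 5 tested miRNAs 1 was lower with the block, and none was called without it. The part of these reads in the results that differ between replicate 3 and the others was not tested.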

How the data were processed

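Small RNA libraries of HCT-Oxa-c, HCT-FU-c and HCT116, with 3 biological replicates each, were prepared from total RNA and sequenced on an Illumina MiSeq. Raw read counts per mature miRNA were deposited by the authors together with a normalized signal, in which each library's counts are scaled by a single factor. The submitters' processing notes name CASAVA 1.8, Bowtie 1.1.2, DESeq2 and the build GRCh38.p7, and mapping and counting settings are not given in the sources used here. The sample labels gave each library's line and replicate number, and every count column could be matched to a label by its name. Only the deposited counts were used.

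Counts were tested with edgeR 4.0.16 (R 4.3.3), by the quasi-likelihood F test after TMM normalization with the line as factor, in all 9 libraries, for HCT-Oxa-c minus HCT-FU-c. Of 1198 miRNAs, 367 passed filterByExpr (minimum count 10, minimum total 15). Log2 differences are fitted values with a prior count of 0.125, p-values were adjusted by Benjamini-Hochberg, and a miRNA was called at an adjusted p below 0.05. CPM were computed on the TMM-scaled library size. Seeds (bases 2 to 8 of RefSeq mature sequences, found for 1059 of the 1198 miRNAs) were summed before scaling and tested in the same way. Ratios of 5p to 3p counts were fitted with limma 3.58.1 on log2(count + 0.5). DESeq2 1.42.0 and limma-voom were alternative tools. The scripts were tested on simulated data.

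The replicate number was used as a block by the rule that every same-numbered pair of deviations correlates above 0.1 (HCT-Oxa-c with HCT-FU-c 0.45, 0.56 and 0.76). Unlike-numbered pairs of replicates 1 and 2 correlated at 0.47 (HCT-FU-c 1 with HCT-Oxa-c 2) and 0.61 (HCT-FU-c 2 with HCT-Oxa-c 1). As the 3 deviations of a line sum to 0, these values are not independent of each other. The correlations therefore set only replicate 3 apart, and numbers 1 and 2 are not shown to pair. The numbers come from the labels, where neither batches nor dates are named. With the block the biological coefficient of variation fell from 0.458 to 0.174. Replicates of 1 subline differed by far more than sampling noise, the chi-square statistic per degree of freedom being 11.6 to 461, so none was counted as a repeat of another. The p-values measure the spread between the cultures of these sublines and of HCT116.

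Named are all miRNAs called without the block, the 8 higher and the 8 lower ones with the smallest p-values among those called only with it, the miRNAs assayed by qRT-PCR in the study with miR-30a, miR-34a-5p and miR-218-5p, and, of each list, up to 3 of its most abundant members where called in either model. Others are named as chosen after their values were seen or, for cell type markers, from their list. The members and lists were chosen with earlier results of these data known. Hairpin positions and host genes are those of GENCODE 29 on GRCh38. The proteome and qRT-PCR assays were not analysed here.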

Additional observations from a re-analysis of the deposited data

How the results depend on the processing

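The count of 16 miRNAs was 43 with DESeq2, 9 with at least 10 counts in every library, 30 at an adjusted p below 0.1 and 6 below 0.01. With the replicate block it was 97, or 77 with only the 6 libraries compared and 85 with DESeq2, with replicate 3 as a factor 92, and with replicates 1 and 2 only 67. Leaving out 1 library in turn gave 6 to 23. It was 17 with RLE size factors and with total counts, 18 with limma-voom and with TMM factors that leave out miR-21-5p, 24 without the filter and 13 in the fit of the 6 subline libraries alone. The count of 10 seeds was 17 without the filter, 6 with at least 10 counts in every library, 4 with only the 6 libraries, 74 with the replicate block, 70 with replicate 3 as a factor and 70 with replicates 1 and 2 only, and 0 to 12 with 1 library left out. For the ratio of 5p to 3p counts, the count of 0 was 3 with the replicate block and 5 with replicates 1 and 2 only, settings chosen after seeing the data. The model without a library of a subline has 2 samples there and assumes the spread of the other lines. The block lost none of the 16 calls and none of the 10 seeds. The cause of these differences in count was not tested.

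No called value changed sign. Values of named miRNAs that were not called without the block and did so were miR-27a-5p (-0.0628) and miR-195-5p (-0.0314) with total counts, and miR-195-5p (-0.20) with replicates 1 and 2 only. With 1 library left out the log2 difference was -0.0137 to 3.70 for miR-203b-3p, -0.32 to 1.49 for miR-182-5p, -0.64 to 1.81 for miR-10b-5p and -4.99 to 9.89 for miR-451a, lowest without HCT-Oxa-c replicate 3 and highest without HCT-FU-c replicate 3. For miR-30e-5p it was -0.27 to 0.0628 (lowest and highest without HCT-FU-c replicates 3 and 2), and for miR-301a-3p -0.81 to 1.12. miR-301a-3p, at -0.0585, also turned positive with 0.00436 for RLE size factors, 0.000886 for DESeq2, 0.19 for limma-voom, 0.11 with the replicate block, 0.16 with the block in 6 libraries, 0.18 with the block in DESeq2, 0.0977 with replicate 3 as a factor and 0.33 with replicates 1 and 2 only. Depth limits the miRNAs with fewer than 10 counts in a subline, whose fold differences have wide counting intervals.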

Other observations

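Among the 831 listed miRNAs below the filter, libraries of HCT-Oxa-c lay wholly above those of HCT-FU-c in 16 and wholly below in 16, and the miRNAs given here were named after these values were seen. Of those above, 6 belong to the miR-379 cluster, the largest being miR-495-3p, with 0, 2 and 5 counts in HCT-FU-c, against 12, 19 and 17 in HCT-Oxa-c. miR-323b-3p of the same cluster had 1, 0 and 0 counts in HCT-FU-c, none in HCT116 and 7, 8 and 18 in HCT-Oxa-c. miR-215-5p, a p53-linked miRNA of the intestinal epithelium, had 6, 2 and 1 counts in HCT-FU-c, against 10, 16 and 18 in HCT-Oxa-c. This was against the direction of miR-34a-5p and miR-194-5p and in that of miR-192-5p. On the lower side miR-3189-3p had 4, 2 and 6 counts in HCT-FU-c, 5, 3 and 13 in HCT116 and 0 in each HCT-Oxa-c library. These counts were not tested.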
